A study of Canis lupus familiaris with 8 samples.

Results

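Collagen genes were described by structural class in retina of the dog (Canis lupus familiaris) that had been prepared in 2 ways. The members are all genes of the deposited table whose symbol consists of COL, a number, A and a number, 39 of 12824 genes. They were grouped by the kind of structure their proteins build. The groups are 10 fibrillar, 6 basement membrane, 9 FACIT (fibril-associated collagens with interrupted triple helices), 3 network and 4 transmembrane genes, and beside these 4 genes of beaded filaments, 1 of anchoring fibrils and 2 multiplexins. Of 44 collagen genes assigned to a class, 5 (COL6A5, COL20A1, COL26A1, COL27A1 and COL28A1) are not analysed here.

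Total RNA was sequenced from male wild-type Beagles of 31 weeks, with 4 fresh-frozen and 4 PFA-fixed libraries. Right eyecups were cut into 4 quadrants and frozen in embedding medium unfixed. Left eyecups were fixed with paraformaldehyde (PFA, which crosslinks proteins and nucleic acids), first at 4% over 3 h, then at 2% over 24 h at 4 °C. They were then cut into quadrants, soaked in sucrose of 15% and 30%, with 24 h in each, and frozen in the same medium. RNA of frozen tissue came from a micro-scale column kit, and RNA of fixed tissue from a kit for paraffin sections with 18 h of proteinase K at 56 °C. Fixation, eye side, sucrose and extraction kit changed together and cannot be told apart. The labels give no animal for any library and do not say whether tissue was captured by laser, so every p-value rests on the spread among these 8 libraries, which may be technical.

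Collagens are built from 3 chains that wind into a triple helix. Fibrillar collagens form the cables of sclera, tendon and cartilage, FACITs decorate those fibrils, type IV forms the sheet of basement membranes, and transmembrane collagens sit in the surface of cells. In the eye, type I is the main collagen of the sclera and cornea. Types II, V/XI and IX make up the fine fibrils of the vitreous, which lies against the inner face of the retina. Type IV lines the inner limiting membrane, the vessels and Bruch's membrane below the pigment epithelium.

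Fibrillar and FACIT genes went both ways, while the genes of basement membranes and of networks were lower. In PFA-fixed against fresh-frozen retina, 23 of 39 collagen genes were lower and 10 higher, and 6 did not pass the test (limma, Benjamini-Hochberg adjusted p under 0.05 over all 12824 genes). With libraries centred on the median of the rod markers, 28 were lower and 6 higher. Of these collagen calls 17.6% were higher, close to the 13.6% of the 9643 calls among all 12824 genes. As deposited, 84.6% were called, against 68.7% of all genes. The shares were 59.0% lower and 25.6% higher, against 34.7% and 33.9% of all genes in the table. All 6 genes of type IV, the 3 network genes, both multiplexins and 3 of 4 beaded filament genes were lower. Fibrillar genes split into 5 lower and 4 higher, and FACIT genes into 3 lower and 4 higher. The genes that rose were COL2A1, COL5A3, COL11A1 and COL11A2 among fibrillar genes, COL9A1, COL9A2, COL19A1 and COL22A1 among FACITs, the transmembrane gene COL25A1 and the anchoring fibril gene COL7A1.

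Falls reached far larger sizes than rises. A fall of at least 16-fold was called for 10 of the 39 collagen genes, against 173 of all 12824 genes (1.35%). Of the 23 falls 22 were at least 2-fold, which is 22 of the 39 genes, against 1756 of all genes (13.7%). Rises of at least 2-fold numbered 7 of the 39, also a larger share than the 1356 of all genes (10.6%). The largest rise was 7.70-fold, for COL22A1. The median change over the 39 genes was -1.70 on the log2 scale, with a range from -9.27 to 2.94, beside a median of -0.02 over all genes. Over the 39 genes, every PFA-fixed library lay below every fresh-frozen one for 23 (59.0%) and above for 10 (25.6%), and the groups overlapped for 6. Among all genes, 31.6% lay below and 31.3% above, 62.9% without overlap. The genes without overlap are the same ones that were called, so this is no separate support. The adjusted p of each called gene with limma was at most 0.00513, and the lowest of the 6 others was 0.110. In bulk tissue, fewer cells of a type and less RNA per cell cannot be told apart.

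**Figure D1:**
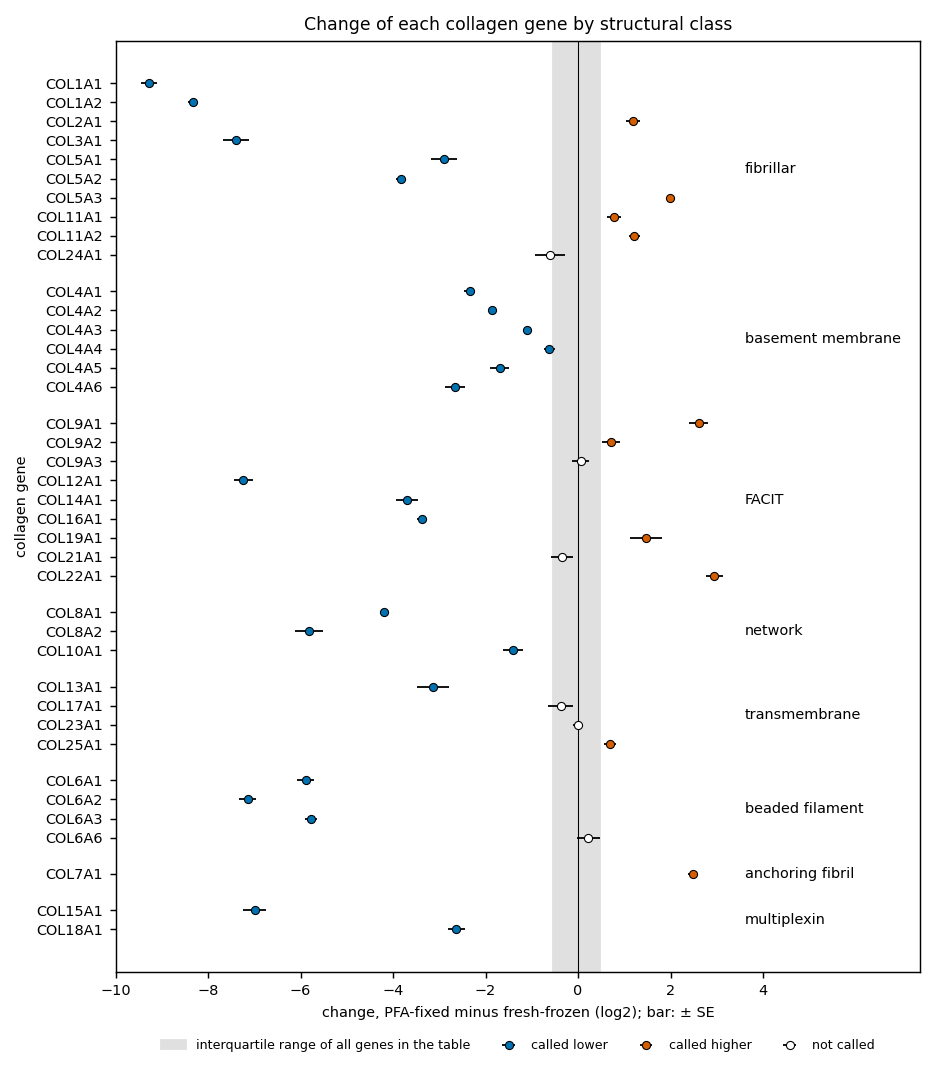
Change of each of the 39 collagen genes (x axis, log2 scale, PFA-fixed minus fresh-frozen, bars ± SE, 4 libraries a group), grouped by structural class. Blue points were called lower, orange points higher and open points were not called, and the grey band spans the interquartile range of all genes in the table. Fibrillar and FACIT genes lie on both sides of 0, from -9.27 for COL1A1 to 2.94 for COL22A1, while the 6 basement membrane genes lie between -2.65 and -0.62.

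The table had been filtered before deposit, since each of its genes exceeded 1 CPM (counts scaled to library size) in at least 4 libraries. Of the collagen genes, 36 exceeded 1 CPM in all 8 libraries. COL8A2, COL13A1 and COL15A1 did so in every fresh-frozen library and in only some PFA-fixed ones, so their place in the table rests on the group where they were high. Their p-values carry less weight for that reason. All of them are among the 23 genes called lower and in the counts of their classes. COL8A2 and COL15A1 are also among the 10 falls of at least 16-fold. Effective depth, estimated from the spacing of the low values, came to 22100000 ± 490000 reads for the fresh-frozen group and to 12790000 ± 1840000 for the fixed group (SD, n = 4 per group), 1.73-fold apart. All 20 rod markers were measured and summed to 31129 to 36304 CPM in fresh-frozen and 34281 to 39136 CPM in PFA-fixed libraries. Of them, 11 were called higher (55%, against 33.9% of all genes) and 4 lower, with a median change of 0.29. Markers of other tissues and cells also differed between the preparations, where 34.7% of all genes were lower. Lower in PFA-fixed retina were 7 of 8 fibroblast, 8 of 8 pericyte, 8 of 8 endothelial, 6 of 6 pigment epithelium, 5 of 6 melanocyte and 5 of 5 Schwann cell markers, and 5 of 8 Müller glia markers (62.5%). Of 3 corneal and lens markers, KERA was lower (-4.51), KRT12 higher (1.93) and BFSP1 not called. KERA was below 1 CPM in every fixed library, so its place in the table rests on the fresh-frozen group.

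The interstitial fibrillar chains fell most. COL1A1, a chain of type I collagen, stood at 11.41, 12.25, 11.63 and 11.89 log2 CPM in fresh-frozen replicates 1 to 4, and at 2.67, 2.73, 2.12 and 2.58 in PFA-fixed replicates 1 to 4. Its partner COL1A2 stood at 11.12, 11.64, 11.39 and 11.52 against 3.30, 3.03, 2.92 and 3.12. The fresh-frozen libraries of both chains were far above the fixed ones, with changes of -9.27 ± 0.17 and -8.32 ± 0.11 (log2, SE; limma adjusted p = 7.14e-12 and 7.87e-13). COL3A1, the chain of type III collagen in soft connective tissue and vessel walls, was 169-fold lower, from 8.90 to 9.98 log2 CPM in fresh-frozen libraries to 1.22 to 2.54 in fixed ones.

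Type V chains, which sit inside type I fibrils and limit their thickness, went both ways. COL5A1 was at 8.06, 8.25, 8.02 and 8.24 log2 CPM in fresh-frozen and at 5.23, 5.87, 5.67 and 4.21 in fixed replicates 1 to 4, a change of -2.90 ± 0.28 (SE; limma adjusted p = 2.19e-06). PFA-fixed replicate 4 was the lowest of all 8. COL5A2 changed by -3.83 ± 0.11 (SE; limma adjusted p = 1.84e-10), with fresh-frozen libraries between 7.26 and 7.78 and fixed ones between 3.65 and 3.90 log2 CPM. COL5A3, the third chain of the type, was instead at 7.34, 7.27, 7.45 and 7.29 log2 CPM in fresh-frozen replicates 1 to 4 and at 9.17, 9.49, 9.39 and 9.24 in fixed ones. It rose by 1.99 ± 0.08 (SE; limma adjusted p = 2.07e-09), 3.96-fold, with tight groups that did not overlap. The log2 ratio of COL5A3 to COL5A1 went from -0.81 ± 0.19 to 4.08 ± 0.65 (SD, n = 4 each), a pair chosen after its values were seen and given without a test.

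COL2A1 and the type XI chains, fibrillar collagens of cartilage and vitreous, were higher in fixed retina. COL2A1, which encodes type II collagen, was at 6.48, 6.22, 5.72 and 6.08 log2 CPM in fresh-frozen replicates 1 to 4 and at 7.13, 7.59, 7.42 and 7.13 in fixed ones, a rise of 1.20 ± 0.15 (SE; limma adjusted p = 2.23e-05). COL11A1 and COL11A2, chains of type XI collagen at the core of type II fibrils, rose by 0.78 ± 0.14 and 1.22 ± 0.13 (SE; limma adjusted p = 4.71e-04 and 4.13e-06). With the rod median, COL11A1 was at 0.16 and no longer called (limma adjusted p = 0.246). COL11A1 was at 6.85, 7.30, 7.22 and 7.32 against 7.87, 8.21, 8.16 and 7.56 log2 CPM, so that PFA-fixed replicate 4 came closest to the fresh-frozen libraries. COL11A2 was at 4.36, 4.13, 4.44 and 3.99 against 5.36, 5.61, 5.23 and 5.60 log2 CPM, in groups well apart. COL24A1, a fibrillar gene at low level, was not called (-0.61 ± 0.32, SE; limma adjusted p = 0.110). It was at 1.16, 2.43, 2.53 and 2.42 against 1.71, 1.83, 0.97 and 1.59 log2 CPM, and without fresh-frozen replicate 1 its change was -0.93 and called lower.

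**Figure D2:**
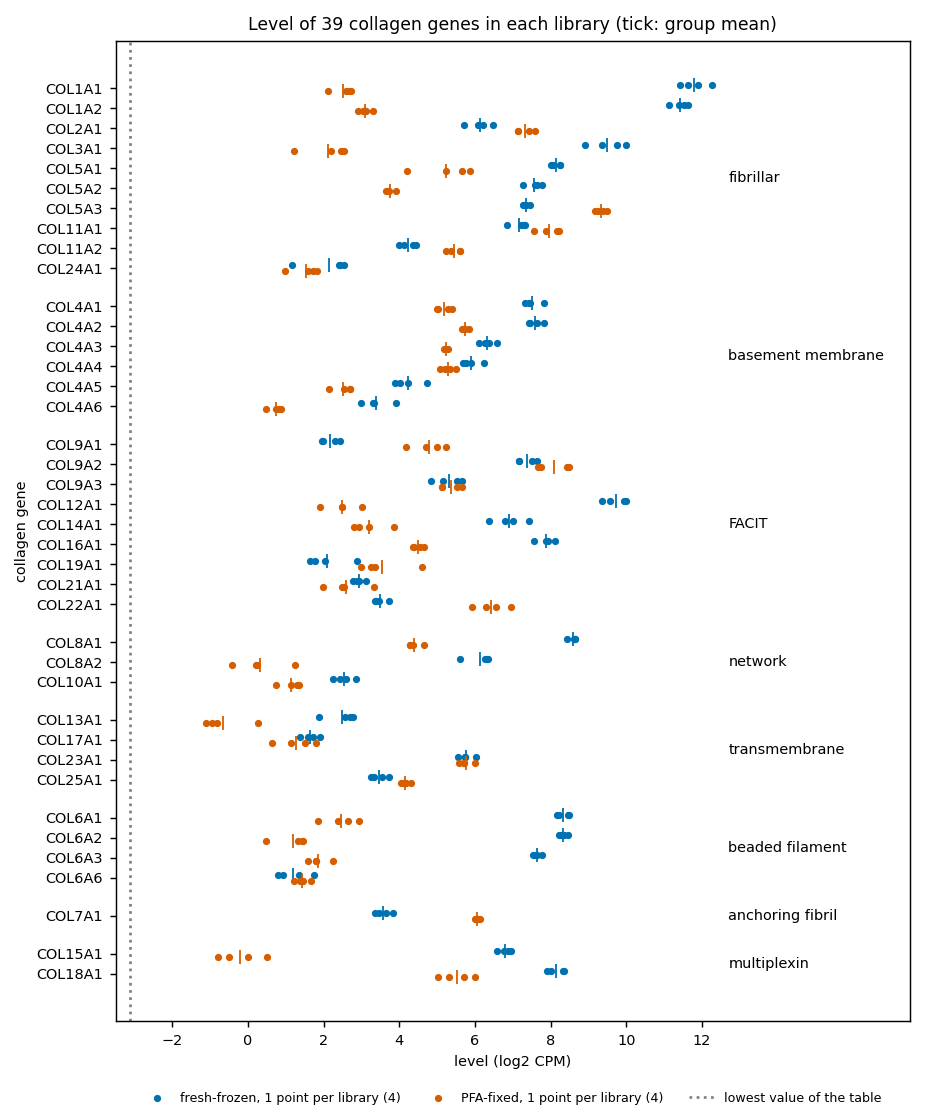
Level of each collagen gene (x axis, log2 CPM) in each of 4 fresh-frozen (blue) and 4 PFA-fixed (orange) libraries, with a tick at each group mean and genes grouped by structural class. COL1A1 lies between 11.41 and 12.25 in fresh-frozen and between 2.12 and 2.73 in fixed libraries, and COL13A1 comes closest to the lowest value of the table (dotted line, -3.12) at -1.12.

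Among the FACIT genes, COL12A1, COL14A1 and COL16A1 fell. COL12A1, whose protein binds type I fibrils in dense connective tissue, stood at 9.37, 9.58, 9.93 and 9.98 log2 CPM in fresh-frozen replicates 1 to 4 and at 2.49, 1.89, 2.49 and 3.03 in fixed ones. It changed by -7.24 ± 0.21 (SE; limma adjusted p = 1.84e-10), 151-fold. COL14A1, also a fibril-binding FACIT, ranged from 6.38 to 7.42 in fresh-frozen and from 2.79 to 3.86 log2 CPM in fixed libraries, a change of -3.70. COL16A1, found in fibrils and at basement membranes, ranged from 7.56 to 8.10 and from 4.36 to 4.64, a change of -3.38.

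The chains of type IX collagen, which coats type II fibrils, differed from one another. COL9A1 was at 2.43, 1.96, 1.99 and 2.30 log2 CPM in fresh-frozen replicates 1 to 4 and at 4.71, 5.23, 4.99 and 4.17 in fixed ones, a rise of 2.60 ± 0.21 (SE; limma adjusted p = 5.93e-07), 6.08-fold. COL9A2 was at 7.63, 7.16, 7.52 and 7.17 against 7.65, 8.44, 8.47 and 7.75, a rise of 0.71 ± 0.19 (SE; limma adjusted p = 0.00513) that was no longer called when libraries were centred on the rod median (0.091, limma adjusted p = 0.645). Its groups nearly met, at 7.63 in fresh-frozen replicate 1 and 7.65 in PFA-fixed replicate 1. COL9A3 was at 5.66, 5.16, 5.54 and 4.85 against 5.12, 5.66, 5.52 and 5.13 log2 CPM, overlapping and not called (0.06 ± 0.18, SE; limma adjusted p = 0.791).

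The other FACITs included the largest rise of the family. COL22A1, a collagen of tissue junctions such as that of muscle and tendon, was at 3.73, 3.45, 3.39 and 3.37 log2 CPM in fresh-frozen replicates 1 to 4 and at 6.30, 6.94, 6.57 and 5.92 in fixed ones. It rose by 2.94 ± 0.18 (SE; limma adjusted p = 6.57e-08). COL19A1, a low-abundance collagen of basement membrane zones that some neurons also express, was at 1.78, 1.63, 2.04 and 2.87 against 3.35, 2.98, 3.26 and 4.59, a rise of 1.46 ± 0.35 (SE; limma adjusted p = 0.00284), or 0.84 and not called with the rod median (limma adjusted p = 0.0569). Replicate 4 of each group was the highest. COL21A1, found in vessel walls, was at 3.12, 2.79, 2.88 and 2.95 against 1.97, 2.49, 3.33 and 2.54 log2 CPM, with PFA-fixed replicate 3 above every fresh-frozen library. It was not called (-0.35 ± 0.24, SE; limma adjusted p = 0.224), but was called lower without PFA-fixed replicate 3 (-0.60).

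All 6 type IV genes were lower, by 1.54-fold to 6.30-fold. COL4A1 and COL4A2, which form the common basement membrane network around vessels, were at 7.84, 7.43, 7.45 and 7.33 and at 7.83, 7.45, 7.64 and 7.43 log2 CPM in fresh-frozen replicates 1 to 4. In fixed replicates they were at 5.03, 5.39, 5.004 and 5.28 and at 5.74, 5.70, 5.65 and 5.84. Both groups were clearly apart, with changes of -2.34 ± 0.12 and -1.86 ± 0.09 (SE; limma adjusted p = 1.35e-08 and 1.05e-08). COL4A3 and COL4A4, of the specialised network of kidney filter and inner limiting membrane, changed least of the type. COL4A3 was at 6.59, 6.36, 6.11 and 6.25 against 5.17, 5.23, 5.28 and 5.22, a change of -1.10 ± 0.10 (SE; limma adjusted p = 1.09e-06). COL4A4 was at 5.76, 6.24, 5.70 and 5.89 against 5.33, 5.49, 5.22 and 5.07, a change of -0.62 ± 0.13 (SE; limma adjusted p = 9.54e-04). COL4A4 was the sole called fall of under 2-fold among the collagen genes.

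COL4A5 and COL4A6, the X-linked pair, fell, with changes of -1.70 ± 0.20 and -2.65 ± 0.22 (SE; limma adjusted p = 1.24e-05 and 5.86e-07). COL4A5 was at 4.74, 3.87, 4.01 and 4.24 log2 CPM in fresh-frozen replicates 1 to 4 and at 2.55, 2.69, 2.69 and 2.15 in fixed ones. COL4A6 was at 3.91, 2.99, 3.34 and 3.31 against 0.89, 0.83, 0.49 and 0.74. Fresh-frozen replicate 1 held the highest value of both genes, and the fixed values of COL4A6 correspond to an estimated 18 to 21 reads. Endothelial markers, summed over 8 genes, ran from 490.4 to 751.0 CPM in fresh-frozen and from 85.7 to 108.4 CPM in fixed libraries, and pericyte markers from 1614 to 2360 and from 355.7 to 438.1 CPM. Their part in the falls of type IV genes was not tested.

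The multiplexins of the basement membrane zone fell with type IV. COL15A1, typical of vessel and muscle basement membranes, was at 6.94, 6.57, 6.88 and 6.77 log2 CPM in fresh-frozen replicates 1 to 4 and at 0.51, -0.80, -0.50 and -0.01 in fixed ones. Its change of -6.99 ± 0.24 (SE; limma adjusted p = 8.47e-10) ended at an estimated 5 to 16 reads. COL18A1, whose C-terminal part is the fragment endostatin, was at 8.35, 8.34, 7.998 and 7.89 against 5.31, 6.01, 5.72 and 5.01, a change of -2.63 ± 0.19 (SE; limma adjusted p = 1.90e-07).

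Network genes fell as well. COL8A1, a chain of type VIII collagen in Descemet's membrane and vessel walls, was at 8.43, 8.63, 8.65 and 8.64 log2 CPM in fresh-frozen replicates 1 to 4 and at 4.28, 4.28, 4.36 and 4.65 in fixed ones (-4.19 ± 0.09, SE; limma adjusted p = 2.29e-11). COL8A2 was at 5.60, 6.34, 6.28 and 6.31 against 0.23, -0.42, 0.21 and 1.24 (-5.82 ± 0.30, SE; limma adjusted p = 1.55e-08), an estimated 7 to 28 reads in fixed libraries. COL10A1, the collagen of hypertrophic cartilage, was low in both groups, at 2.24, 2.60, 2.86 and 2.44 against 0.73, 1.14, 1.29 and 1.35, a change of -1.41 (limma adjusted p = 1.05e-04).

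Chains of the beaded filaments of type VI, a microfibril of the matrix around cells, fell in 3 of 4 cases. COL6A1 was at 8.49, 8.18, 8.23 and 8.45 log2 CPM in fresh-frozen replicates 1 to 4 and at 2.65, 2.37, 1.86 and 2.93 in fixed ones (-5.89 ± 0.19, SE; limma adjusted p = 4.04e-10). COL6A2 was at 8.46, 8.22, 8.28 and 8.36 against 1.33, 1.44, 0.48 and 1.46, and COL6A3 at 7.78, 7.59, 7.54 and 7.65 against 1.60, 1.80, 1.79 and 2.26. They changed by -7.15 ± 0.19 and -5.78 ± 0.13 (SE; limma adjusted p = 9.90e-11 and 2.97e-11). COL6A6, a further chain that can take the place of COL6A3, was not called (0.22 ± 0.25, SE; limma adjusted p = 0.454). It was at 1.74, 0.78, 0.94 and 1.34 against 1.20, 1.45, 1.37 and 1.67 log2 CPM, in overlapping groups.

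Of 8 fibroblast markers, 7 were lower in fixed retina (87.5%, against 34.7% of all genes), by unequal amounts. LUM and DPT, which encode the matrix proteins lumican and dermatopontin, fell (-7.81 and -7.52 on the log2 scale), as did FBLN1, a fibulin gene (-7.02). PDGFRA changed by only -0.54, from a mean of 7.84 to 7.29 log2 CPM. LUM and DPT were below 1 CPM in every fixed library, so their place in the table rests on the fresh-frozen group. DPT stood at the lowest value of the table in at least 1 fixed library. The list went from between 1958 and 2382 CPM in fresh-frozen to between 345.6 and 389.3 CPM in fixed libraries, with MFAP5, a microfibril gene, as the 1 member called higher (0.90; with the rod median 0.28, limma adjusted p = 0.0511, not called). The part of fibroblasts in the collagen falls was not tested.

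Of the 4 transmembrane collagens, 1 was lower, 1 higher and 2 not called. COL13A1, of muscle and neuromuscular contacts, was at 1.89, 2.79, 2.55 and 2.69 log2 CPM in fresh-frozen replicates 1 to 4 and at -0.95, -0.83, 0.27 and -1.12 in fixed ones. It changed by -3.14 ± 0.34 (SE; limma adjusted p = 7.31e-06), to an estimated 4 to 17 reads. COL25A1, expressed by neurons, was at 3.53, 3.34, 3.72 and 3.26 against 4.16, 4.31, 4.03 and 4.11, a rise of 0.69 ± 0.13 (SE; limma adjusted p = 5.06e-04) that the rod median reduced to 0.071 (limma adjusted p = 0.700). COL23A1 was at 6.04, 5.72, 5.55 and 5.73 against 5.59, 5.996, 5.72 and 5.71 log2 CPM, a difference of -0.01 ± 0.11 (SE; limma adjusted p = 0.969) between overlapping groups. COL17A1, the hemidesmosome collagen of epithelia, was at 1.91, 1.59, 1.37 and 1.73 against 1.13, 1.51, 0.64 and 1.80 and was not called (-0.38 ± 0.27, SE; limma adjusted p = 0.232).

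COL7A1, which encodes the anchoring fibril collagen that ties epithelial basement membranes to the tissue below, rose. It was at 3.35, 3.45, 3.64 and 3.84 log2 CPM in fresh-frozen replicates 1 to 4 and at 6.07, 6.13, 5.99 and 6.02 in fixed ones. The rise of 2.48 ± 0.11 (SE; limma adjusted p = 5.29e-09) was 5.58-fold, with fixed libraries that differed little among themselves.

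The collagen share of the library was smaller in fixed retina and differed in its make-up. The 39 genes took 1.11%, 1.39%, 1.13% and 1.29% of the summed CPM in fresh-frozen replicates 1 to 4 and 0.177%, 0.230%, 0.210% and 0.180% in fixed ones, 6.16-fold less on the mean. Shares by class were 63.6-fold lower for beaded filament genes, 20.2-fold for network genes, 8.92-fold for multiplexins, 7.38-fold for fibrillar, 3.42-fold for basement membrane and 3.16-fold for FACIT genes. The transmembrane share was 0.00775 ± 0.000747% against 0.00724 ± 0.000777%, and the COL7A1 share rose from 0.00125 ± 0.000204% to 0.00639 ± 0.000284% (SD, n = 4 each). These sums carry no test, since they add up genes already described.

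**Figure D3:**
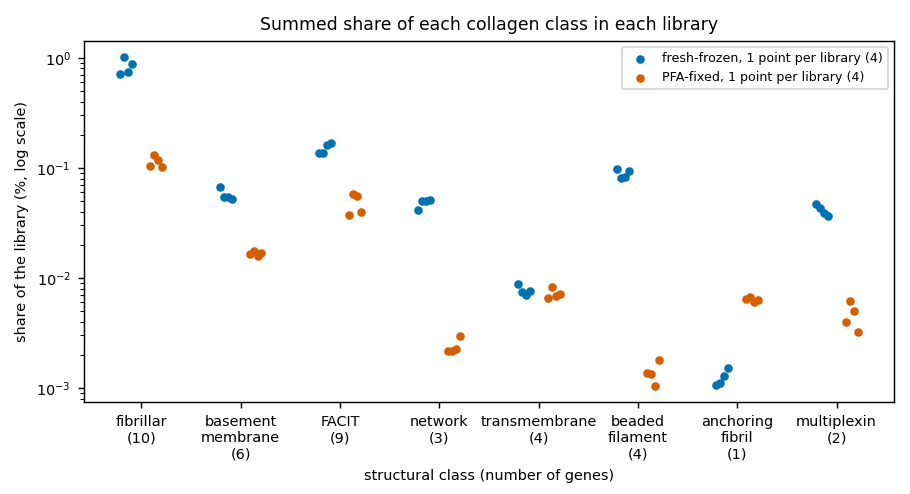
Summed share of each structural class in the library (y axis, percent of summed CPM, log scale), 1 point per library, fresh-frozen in blue and PFA-fixed in orange, with the number of genes under each class. Fixed libraries lie below fresh-frozen ones in 6 classes, overlap them for transmembrane genes and lie above them for the anchoring fibril gene.

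Within the collagen CPM, the chains of type I collagen held 53.7 ± 5.50% in fresh-frozen and 0.708 ± 0.160% in fixed libraries (SD, n = 4 each). COL5A3 went from 1.38 ± 0.207% to 31.1 ± 1.34%, COL9A2 from 1.44 ± 0.384% to 13.3 ± 2.35% and COL11A1 from 1.23 ± 0.129% to 12.1 ± 1.21%. COL2A1 went from 0.606 ± 0.158% to 7.75 ± 0.170% of it. The total that these shares refer to was itself lower in fixed libraries, and shares of CPM are not corrected for gene length.

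Ratios between chains of one collagen type do not depend on the scaling between libraries, but those with a low chain depend on depth and on the shared lowest value. COL8A2, COL4A6 and COL6A2 had an estimated 7 to 28, 18 to 21 and 20 to 33 reads in fixed libraries. Of 11 pairs tested, 7 differed between the preparations, each with groups that did not overlap (exact two-sided permutation p = 0.0286, the smallest that 4 against 4 libraries allow, adjusted p = 0.0449 over the 11 pairs). COL1A1 relative to COL1A2 fell, with log2 ratios of 0.30, 0.61, 0.25 and 0.37 in fresh-frozen replicates 1 to 4 and -0.64, -0.30, -0.80 and -0.54 in fixed ones. COL4A1 relative to COL4A2 went from -0.07 ± 0.09 to -0.56 ± 0.18, and COL4A5 relative to COL4A6 from 0.83 ± 0.11 to 1.79 ± 0.33 (SD, n = 4 each). COL6A1 relative to COL6A2 went from 0.01 ± 0.07 to 1.27 ± 0.23. In these 4 pairs, chains of the same type thus fell by unequal amounts.

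The ratio of COL8A1 to COL8A2 rose by 1.62 on the log2 scale, that of COL9A1 to COL9A2 by 1.89, and that of COL9A3 to COL9A2 was lower (-0.66). For 4 pairs the groups overlapped and the test did not pass. COL6A3 relative to COL6A1 differed by 0.11 (exact permutation p = 0.629, two-sided), COL11A1 relative to COL11A2 by -0.44 (p = 0.200, exact permutation) and COL4A3 relative to COL4A4 by -0.48 (p = 0.0571, exact permutation). COL5A1 relative to COL5A2 differed by 0.93 (exact permutation p = 0.0857, two-sided; fixed replicates at 1.58, 1.97, 1.94 and 0.50). Their adjusted p over the 11 pairs lay between 0.0786 and 0.629. Without PFA-fixed replicate 4 the difference for COL5A1 and COL5A2 was 1.26, where 3 against 4 libraries cannot give a p under 0.0571.

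**Figure D4:**
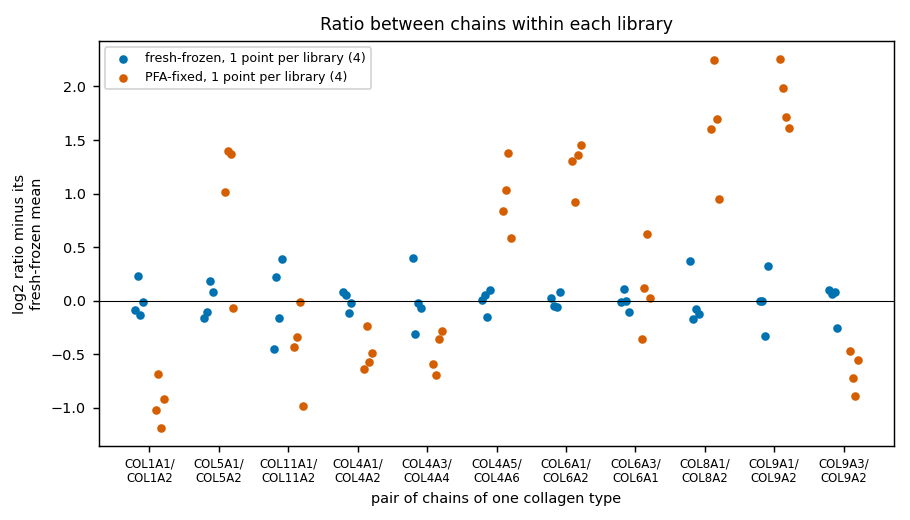
Log2 ratio between chains of one collagen type in each library, minus its mean over the fresh-frozen libraries (y axis, log2 scale), for 11 pairs (x axis), fresh-frozen in blue and PFA-fixed in orange. The groups lie apart for 7 pairs, with shifts from -0.95 for COL1A1 to COL1A2 up to 1.89 for COL9A1 to COL9A2.

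Genes that make and mature collagen fell more often than they rose. Of 37 measured genes on 4 lists, 26 were lower and 5 higher in fixed retina (70.3% and 13.5%, against 34.7% and 33.9% of all genes), with a median change of -0.99. In chain synthesis and folding, 12 of 18 fell and 3 rose. The chaperone gene SERPINH1 (-2.996), the prolyl isomerase gene FKBP10 (-3.41) and P4HB, a subunit of prolyl hydroxylase (-0.998), were among those that fell. PLOD2, a lysyl hydroxylase gene, rose by 0.88, P4HA3 by 0.51 and the ion channel gene TMEM38B by 0.42. P4HA3 was no longer called when replicate 2 (0.39) or 3 (0.48) of the fresh-frozen group, or replicate 1 (0.43) or 4 (0.48) of the fixed group, was left out.

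Of 6 genes for export from the endoplasmic reticulum, 4 fell and 2 rose. The transcription factor gene CREB3L1 (-4.37) and the coat gene SEC24D (-1.92) fell, while the cargo receptor genes MIA3 and MIA2 rose by 0.22 and 0.44. Among fixed libraries, CREB3L1 exceeded 1 CPM only in replicate 4 (0.49 log2 CPM). The place of CREB3L1 in the table thus rests on the fresh-frozen group, and its p-value carries less weight. Of 7 genes that trim the propeptides, 4 fell and none rose, led by the enhancer PCOLCE (-4.96) and the N-proteinase ADAMTS2 (-3.83). The tolloid-like proteinase gene TLL1 was not called (0.14). All 6 crosslinking genes fell, with lysyl oxidase LOX at -3.80, LOXL1 at -2.64 and PXDN, which crosslinks type IV collagen, at -0.99. Of the 5 rises, 1 (PLOD2) was still called when libraries were centred on the mean of the rod markers, and MIA3, MIA2, TMEM38B and P4HA3 were not. With the rod median these 4 turned negative, and MIA3 was then called lower (-0.40, limma adjusted p = 0.00312).

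Collagen receptors fell in 8 of 9 cases (88.9%, against 34.7% of all genes) and rose in 1 (11.1%, against 33.9%). The fibril receptor DDR2 (-3.47), the integrin subunit ITGA11, a receptor for fibrillar collagen (-2.80), and the shared subunit ITGB1 (-0.85) were among those that fell. GP6, the collagen receptor of platelets, rose by 1.74, from 2.30 ± 0.10 to 4.04 ± 0.12 log2 CPM (SD, n = 4 each). ITGA10 (-0.86) was no longer called when replicate 4 of the fresh-frozen group (-0.71) or replicate 1 (-0.67) or 3 (-0.79) of the fixed group was left out.

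Some collagen genes lie next to one another in the dog genome, by the order of genes in the assembly UU_Cfam_GSD_1.0. COL9A1 and COL19A1 are neighbours and both rose, whereas COL3A1 and COL5A2, COL4A1 and COL4A2, COL4A3 and COL4A4, COL4A5 and COL4A6, and COL6A1 and COL6A2 are neighbours and both fell. COL5A3 lies between RDH8, a retinol dehydrogenase gene of photoreceptors, and OLFM2, an olfactomedin gene, which rose by 1.39 and 1.10 (limma adjusted p = 1.52e-07 for each). COL22A1 lies next to FAM135B, which rose by 1.10. COL7A1 lies next to UQCRC1, a respiratory complex gene, which was not called (-0.14, limma adjusted p = 0.300). COL9A2 lies between SMAP2 and ZMPSTE24, neither of them called (-0.22 and -0.06). COL2A1 lies between TMEM106C, called lower (-0.27), and SENP1, called higher (0.90). Collagen genes that were not called had rising neighbours too. COL24A1 lies between ODF2L, not called (0.15), and ZNHIT6, which rose by 2.60. COL23A1 lies between CLK4, which rose by 1.06, and PHYKPL, not called (-0.16). Neighbours are named here for some collagen genes only, picked without a set rule. Of all genes, 33.9% were called higher, and a link between neighbours was not tested. The strand setting of the counting is not given in the sources used here, so reads of overlapping neighbours could not be separated.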

How the data were processed

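The authors deposited 1 table of log2 CPM for 12824 genes in 8 libraries. The tools named in the submitters' processing notes are kallisto 0.48.0, edgeR and limma, without their roles. The transcript reference, like the strand setting and the filter, is not given in the sources used here. All libraries share a lowest value of -3.12 log2 CPM (0.115 CPM), so changes of genes near it are understated. Effective depth was estimated as the spacing, between 0.03 and 0.15 CPM, on which low values fall. Of values up to 20 reads, 61.8% to 67.9% per library came out whole within 0.1 of a read, so no count test was run.

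Groups came from the titles. The deposited log2 values were fitted with limma 3.58.1 (R 4.3.3, intensity trend, group as the only term), with Benjamini-Hochberg adjustment over all genes at 0.05. The step was checked on simulated data. Changes are PFA-fixed minus fresh-frozen. Chain ratios were compared by exact permutation over 70 assignments. Every collagen gene is reported. The rule for the other lists was to name the 2 called genes with the largest changes and the gene with the highest mean level. It was followed for the biosynthesis and receptor lists, with rises added after their values were seen. Of the marker lists, some fibroblast, corneal and lens genes are named and the others given as counts. The members, classes and lists were chosen with earlier results of these data known. Of the 39 symbols, 38 matched the RefSeq gene table, which was used only for names and neighbours. Alternatives were each library left out, the replicate block, 4 scalings, a minimum mean of 3 log2 CPM, log2(CPM + 1) and no intensity trend.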

Additional observations from a re-analysis of the deposited data

Results flagged for a closer look

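In 78 groups of 4 libraries (39 genes in each preparation), 4 single values lay far from the other 3 libraries of their group by Dixon's test, about as many as chance gives (1 in 20). Fresh-frozen replicate 1 was low for COL24A1, at 1.16 log2 CPM against 2.42 to 2.53 in the other 3, for COL8A1, at 8.43 against 8.63 to 8.65, and for COL8A2, at 5.60 against 6.28 to 6.34. PFA-fixed replicate 3 was low for COL6A2, at 0.48 against 1.33 to 1.46. Both type VIII chains and COL24A1 share this library. Without it, COL8A1 and COL8A2 were still called lower, and COL24A1 was then called lower too.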

How the results depend on the processing

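With every library left out in turn, 23 to 24 collagen genes were called lower and 10 higher, and no call among the 33 was lost. Of 616 recomputed changes of collagen genes, 589 kept their direction and call, 4 lost the call, 9 gained one and 14 turned sign, and none of those that turned was called as deposited. The replicate block left 23 lower and 10 higher, changed no call of a collagen gene, and rests on a number only. Same-numbered libraries correlated at 0.05, 0.15, -0.089 and 0.22 in their deviations over all genes, and 4 of 8 libraries lay closest to their own number. Chain ratios with a library left out have no test, since 3 against 4 libraries cannot pass.

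The scaling mattered most. Centring on the mean or the median of the rod markers moved the median change of all genes to -0.28 and -0.64. With the rod median, 28 collagen genes were called lower and 6 higher (17.6% of calls higher, against 30.3% as deposited). Among all genes, the share of calls that were higher went from 49.4% as deposited to 13.6% with the rod median. COL2A1, COL5A3, COL11A2, COL9A1, COL22A1 and COL7A1 kept their rises, and COL11A1 (0.16), COL9A2 (0.091), COL19A1 (0.84) and COL25A1 (0.071) lost theirs, though they stayed above the median of all genes. With the rod mean, 25 collagen genes were called lower and 10 higher, and all 10 rises kept their call. Of the collagen calls with the rod mean 28.6% were higher, against 31.0% of the calls among all genes. The biosynthesis genes called higher numbered 1 with the rod mean and 0 with the rod median.

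Among the collagen genes, signs turned only for uncalled ones. COL9A3 ran from -0.093 to 0.18 with single libraries left out (-0.042 when fixed replicate 2 was), and was at -0.20 and -0.56 with the rod mean and median, called lower in the last. COL23A1 ran from -0.086 to 0.086 with single libraries left out, and was at 0.0034 after quantile normalization at 0.073 with median centring, and at -0.63 and called lower with the rod median (limma adjusted p = 6.29e-04). Quantile normalization gave 0.0093 for COL21A1 and 0.0058 for COL17A1, which the rod median put at -0.97 and -0.999, both called lower (limma adjusted p = 0.00373 and 0.00831). With the rod median COL24A1 was called lower too (-1.23). Quantile normalization called COL6A6 higher (0.59). COL6A6 was at -0.037 and -0.40 with the rod mean and median. Signs also turned for biosynthesis genes that were called higher as deposited. MIA3 was at -0.042 with the rod mean and at -0.40 with the rod median, where it was called lower (limma adjusted p = 0.00312). After quantile normalization MIA3 was at 0.15 and not called (limma adjusted p = 0.0675). With the rod median P4HA3, TMEM38B and MIA2 were at -0.11, -0.20 and -0.19, not called. Depth limits COL13A1, COL15A1, COL8A2 and COL4A6, which had under 30 estimated reads in each fixed library.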
